A study of Mus musculus with 16 samples.

Results

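Hearts of mice exposed to an aggressor for 3 days (group T3R1) were compared with hearts of mice exposed for 1 day (group T1R1), each after 1 day of rest, on microRNA arrays. The comparison took every sample that the labels place in either group, 4 against 4, which is 8 of the 16 samples in the series, and every probe whose name holds a mouse microRNA, which is 1023 probes, 1022 of them with enough values to be tested. All mice were C57BL/6, and RNA was taken from single hearts, so each sample is a different animal. Exposed mice were placed in a mesh box in the cage of an aggressor for part of each day and were attacked for short spells. The protocol text was written for longer courses of exposure than the group labels give, and the labels were followed here. The other groups were T2R1, exposed for 2 days and rested for 1 day, and controls, which sat in mesh boxes in a cage with no aggressor, with 4 mice each. Neither the sex nor the age of the mice is given in the labels, and no group is a genetic model. The samples are whole heart, so fewer cells of a type and less RNA per cell cannot be told apart.

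The slide numbers fall into 2 separate ranges, called runs here, and the groups compared do not share one. The arrays of T3R1 and of the controls belong to run 1, and those of T1R1 and T2R1 to run 2. Every T3R1 minus T1R1 difference is therefore also a difference between slide runs, and days of exposure and slide run cannot be told apart in it. Landing lights, printed corner spots that bind no sample RNA, had a mean raw brightness in the Hy3 channel of 15720 ± 263 intensity units on the 4 arrays of run 1 and 24780 ± 2130 on the 4 arrays of run 2 (SD, n = 4), a ratio of 1.58 (2-sided exact permutation test, p = 0.0286, the smallest its 70 regroupings allow). The 2 arrays of T1R1 were at 24239.3 and 27772.5 and the 2 of T3R1 at 15680.2 and 15892.4. In the Hy5 channel they read 65.4 to 190.5 on run 1 and 70.8 to 72.6 on run 2. The raw median brightness of mouse probes had a T3R1 to T1R1 ratio of 0.982, and that of virus probes one of 0.994 (2-sided exact permutation test over 4 samples a group for the virus probes, p = 0.914). In these 8 samples the virus medians were 40.8 to 44.3 in Hy3 and 64.4 to 69 in Hy5. The test left this dye gap in the spread, so it cannot show that the groups were equally bright. The scan times of arrays from both runs interleave. Each array held 2 samples of 1 group, 1 in the dye Hy3 and 1 in Hy5, so each group rests on 2 arrays.

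MicroRNAs are short RNAs that pair with messenger RNAs, mainly through a seed near their 5′ end, and lower the stability or translation of those messages. A hairpin precursor gives a strand from each arm, and on this array a star marks the strand held to be less abundant. In the heart, miR-1, miR-133a, miR-208a and miR-499 mark the muscle cells, the miR-30 and let-7 families are widely expressed, and miR-21 and miR-214 are known from studies of hypertrophy and fibrosis. MicroRNAs that share a seed are expected to pair with overlapping sets of messages.

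The mature sequences of the microRNAs that the comparison turns on follow, as RefSeq annotates them on build GRCm38.p6, with the seed (bases 2 to 8) in capitals. The first set holds 3 members of the miR-30 family, which share a seed and of which miR-30a alone was called, and the star strand of miR-30e. Next are let-7a and miR-98, which also share a seed, and then the microRNAs named most often below.
miR-30a: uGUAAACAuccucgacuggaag
miR-30e: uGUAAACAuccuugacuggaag
miR-30c: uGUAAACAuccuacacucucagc
miR-30e*: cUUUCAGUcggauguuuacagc
let-7a: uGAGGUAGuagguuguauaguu
miR-98: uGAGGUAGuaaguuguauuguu
miR-149: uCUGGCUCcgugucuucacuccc
miR-146a: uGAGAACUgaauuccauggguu
miR-582-3p: uAACCUGUugaacaacugaac
miR-214: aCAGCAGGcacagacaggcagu
miR-493*: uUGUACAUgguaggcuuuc
miR-433*: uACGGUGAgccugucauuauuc
miR-21: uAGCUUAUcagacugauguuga
The mature miR-30a lies at chr1:23272274-23272295 on the plus strand. MiR-30e and miR-30e* come from opposite arms of the hairpin at chr4:120772660-120772681 and chr4:120772618-120772639 on the minus strand, within the span of Nfyc, a subunit of the CCAAT-binding factor NF-Y. MiR-149 lies at chr1:92850381-92850403 within the span of Gpc1, a heparan sulfate proteoglycan, and miR-582-3p at chr13:109324790-109324810 within that of Pde4d, a cAMP phosphodiesterase. MiR-493* at chr12:109580243-109580261 and miR-433* at chr12:109591729-109591750, both on the plus strand, lie within the span of Rtl1, in the imprinted Dlk1-Dio3 domain. Of 31 array names looked up, 24 had an entry, and miR-30d, miR-467a*, miR-1186b and miR-1196 are named only.

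In the comparison of all mouse probes, 22 microRNAs differed between T3R1 and T1R1 at a limma adjusted p under 0.05, which is 2.15% of the 1022 tested. Of these, 11 were lower after 3 days (1.08%) and 11 were higher (1.08%). The lower ones included miR-30a, miR-30d and the star strand of miR-30e, let-7a, the star strands of the muscle microRNAs miR-133a and miR-499, and the leukocyte-associated miR-146a and miR-181a. The higher ones included miR-582-3p, miR-214, and miR-493* and miR-433* of the Dlk1-Dio3 domain. The differences were small, from 0.20 to 0.71 on the log2 scale among the lower and from 0.18 to 0.69 among the higher. An unadjusted p under 0.05 was reached by 134 probes (13.1%), 55 higher and 79 lower in T3R1, where 51.1 are expected by the definition of p. The median difference over all tested probes was -0.01, and 431 were positive and 591 negative. The 22 calls rest on an array correlation of 0.249 estimated over all probes. With the 0.645 estimated over bright probes, miR-30a, miR-30e*, miR-582-3p and miR-149 alone were called, and let-7a, miR-133a*, miR-1186b and miR-214 had adjusted p values of 0.155, 0.132, 0.132 and 0.274.

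**Figure D1:**
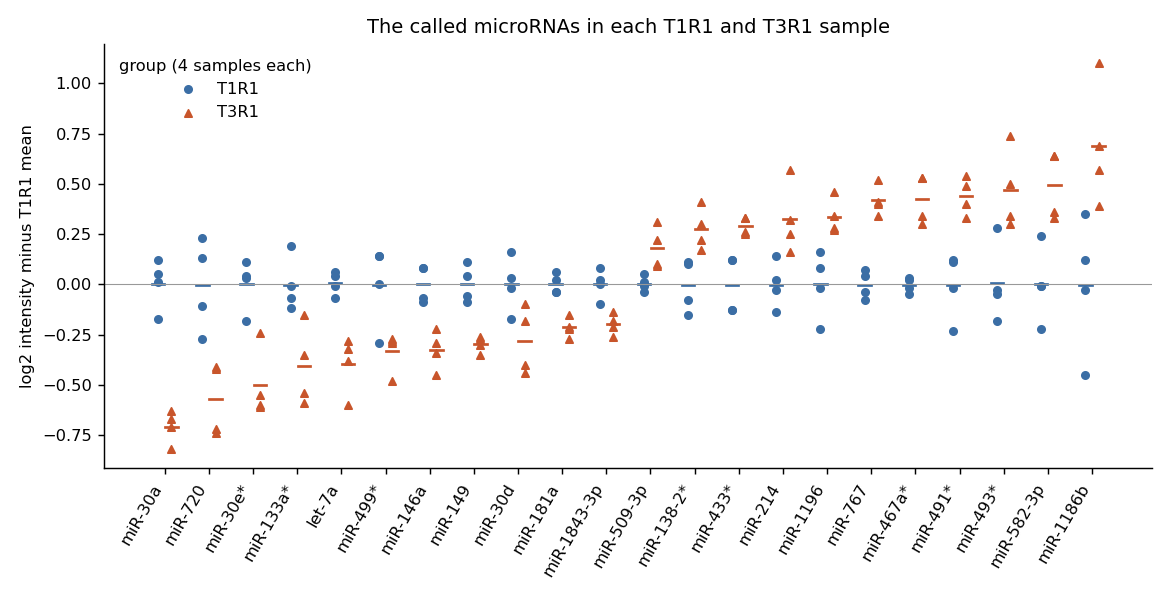
Log2 intensity of each called microRNA in each sample, with the mean of the 4 T1R1 samples set to 0 on the vertical axis (circles, T1R1; triangles, T3R1; short lines, group means; n = 4 each). The groups did not overlap for 20 of the 22, and the largest shifts were 0.71 downward for miR-30a and 0.69 upward for miR-1186b.

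The 2 groups did not overlap for 20 of the 22 called microRNAs, against 76 of all mouse probes (7.44%), 38 in each direction (3.72%). The exceptions were miR-30d and miR-499*. Since the same values made the calls, this count describes them and adds no test. To judge which signals stood above background, a probe was set against the 95th percentile of 143 probes for human viruses in the same sample. Of the mouse probes, 143 were above that level in all 8 samples, 203 in at least 4, and 753 in none. Among the called microRNAs, 10 of the 11 higher and 5 of the 11 lower were above it in all 8 samples, while miR-509-3p and miR-181a were above it in none. Over the 202 tested probes above it in at least 4 samples, 86 differences were positive and 116 negative, with a median of -0.04 and 19 called.

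**Figure D2:**
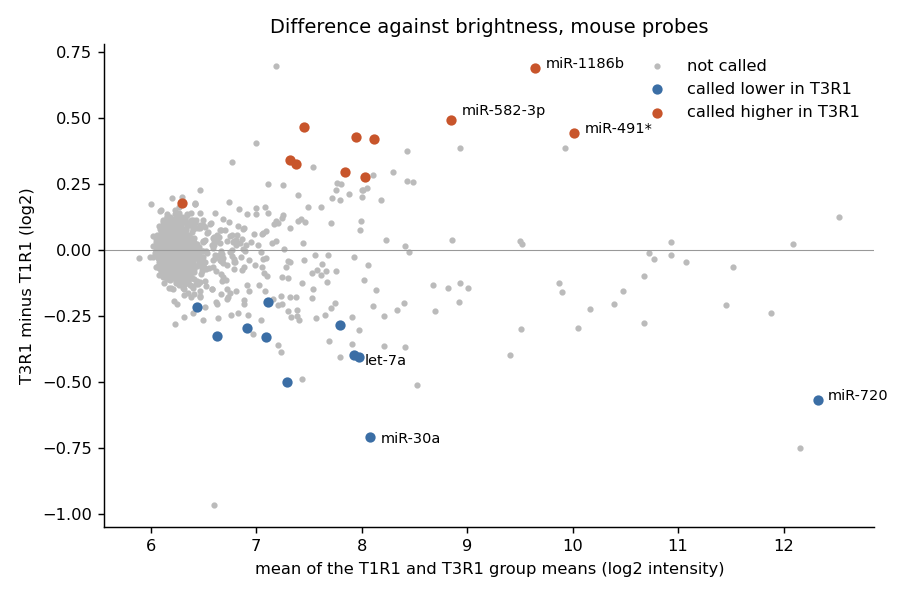
T3R1 minus T1R1 difference (log2) of each tested mouse probe against the mean of the T1R1 and T3R1 group means (log2 intensity), with called probes in colour. Most probes lie near the dim end, where 753 were never above the level of the virus probes, and the called probes lie mostly to the right of it.

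Among the lower microRNAs, miR-30a had the lowest p. The family it belongs to is known to restrain connective tissue growth factor in the heart. Its level in T1R1 was 8.26, 8.44, 8.48 and 8.55 on the log2 intensity scale, and in T3R1 it was 7.80, 7.61, 7.76 and 7.72. All 4 samples of T3R1 lay below all 4 of T1R1. The difference was -0.71 ± 0.08 (log2, SE; 1.64-fold lower in T3R1), with a limma adjusted p of 0.000246. The slide run must be read beside it: the controls, on the same run as T3R1, had a mean of 7.74, and T2R1, on the same run as T1R1, had a mean of 8.46. Within a run, T3R1 minus control was -0.02 and T2R1 minus T1R1 was 0.03.

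MiR-30d, of the same family, was 7.92, 7.77, 8.10 and 7.97 in T1R1 and 7.84, 7.54, 7.76 and 7.50 in T3R1. One T3R1 sample, at 7.84, lay above the lowest of T1R1, so the groups overlapped. The difference was -0.28 ± 0.07 (adjusted p = 0.0447 by limma). The other members did not pass the test: the differences of miR-30b, miR-30c and miR-30e were -0.10 ± 0.09, -0.04 ± 0.08 and -0.16 ± 0.09. The family thus had 5 of 5 negative differences and 2 called, with a median of -0.16, where 19 of the 202 tested bright probes were called and 116 were negative. MiR-30a and miR-30e differ at 1 base of 22, outside the seed as printed above, so a probe for either may also bind the other.

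MiR-30e*, the strand opposite miR-30e, was at 7.57, 7.36, 7.65 and 7.58 in T1R1 and 7.30, 6.99, 6.94 and 6.93 in T3R1. T3R1 replicate 1 was the highest of its group and still lay below every T1R1 sample. The difference was -0.50 ± 0.07 (adjusted p = 0.00245). Here the controls, at a mean of 7.26, lay between T3R1 and T1R1, T3R1 minus control was -0.22, and T2R1 minus T1R1 was -0.15.

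Let-7a belongs to a family that is known to accompany differentiation and to target Ras and Hmga2. It was at 8.05, 8.18, 8.11 and 8.16 in T1R1 and 7.80, 7.52, 7.84 and 7.74 in T3R1, with no overlap. The difference was -0.40 ± 0.07 (adjusted p = 0.00746). The controls, with a mean of 7.61, lay below T3R1, and T2R1, with a mean of 8.38, lay above T1R1, so that both groups of run 2 were higher than both groups of run 1. MiR-98, which shares the seed of let-7a and differs from it at 2 of 22 bases, had a difference of the opposite sign. Its levels were 7.87, 7.91, 7.87 and 7.95 in T1R1 and 7.99, 8.09, 8.23 and 8.20 in T3R1, and its difference of 0.23 ± 0.06 did not pass the test (adjusted p = 0.103). Of the 8 tested members of the let-7 family, 6 had negative differences and let-7a alone was called. Let-7g was not tested, since outlier marks on its spots left it no value in T1R1.

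The star strands of miR-133a and miR-499 were also lower. MiR-133a* comes from the hairpin of miR-133a, which is known to limit hypertrophic growth and to repress smooth muscle genes. It was at 8.17, 8.06, 8.37 and 8.11 in T1R1 and 8.03, 7.64, 7.83 and 7.59 in T3R1, a difference of -0.41 ± 0.07 (adjusted p = 0.00774) with no overlap. MiR-133a itself was at 10.26, 10.32, 10.64 and 10.75 in T1R1 and 10.45, 10.29, 10.19 and 10.24 in T3R1. These groups overlapped, and the difference of -0.20 ± 0.11 did not pass the test (adjusted p = 0.438). MiR-499* comes from a hairpin within Myh7b, a myosin heavy chain gene, and was at 6.97, 7.40, 7.26 and 7.40 in T1R1 and 6.97, 6.99, 6.78 and 6.98 in T3R1. T1R1 replicate 1 lay among the T3R1 samples, and the difference was -0.33 ± 0.08 (adjusted p = 0.0447). MiR-499 had a difference of -0.36 ± 0.11 that did not pass the test (adjusted p = 0.122), and its T3R1 minus control difference on 1 slide run was -0.35.

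The muscle markers as a list had 6 of 7 members on the array, none called and 1 at an unadjusted p under 0.05, with 4 negative differences and a median of -0.18. All 6 were above the level of the virus probes in at least 4 of the 8 samples, and no probe was matched to miR-1. MiR-208a-3p, encoded in the myosin gene Myh6, was 12.38, 11.89, 12.30 and 11.77 in T1R1 and 12.60, 12.07, 12.23 and 11.52 in T3R1. Within each group the Hy3 samples, replicates 1 and 3, lay above the Hy5 samples, and the groups overlapped. Its difference was 0.02 ± 0.15, and its sign depended on how arrays were scaled. With arrays scaled to their medians it was -0.91 and called lower (limma adjusted p = 0.00408), and 4 of the 6 muscle markers were called lower. That setting called 83 of all 1022 tested probes lower and 2 higher. The median of the muscle list was -0.81 there, beside -0.90 for the miR-30 family and -0.82 for the miR-29 family.

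MiR-149 was at 7.0, 6.97, 7.17 and 7.10 in T1R1 and 6.79, 6.76, 6.80 and 6.71 in T3R1. The groups did not overlap, and the difference was -0.29 ± 0.04 (adjusted p = 0.00245). In T3R1 it stood above the virus-probe level in 1 of 4 samples, against 4 of 4 in T1R1. MiR-720, whose sequence has since been assigned to a transfer RNA fragment, was at 12.34, 12.50, 12.84 and 12.74 in T1R1 and 11.87, 11.89, 12.20 and 12.19 in T3R1, a difference of -0.57 ± 0.12 (adjusted p = 0.0403). T2R1 had a mean of 12.82, close to T1R1 on its own run, and outlier spots left 1 control sample, at 11.85. MiR-1843-3p had a difference of -0.20 ± 0.05 (adjusted p = 0.0447).

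The list of leukocyte and inflammation microRNAs held 2 of the lower calls, where 1.08% of all tested probes were called lower. Its members chosen as leukocyte markers, miR-142-3p, miR-142-5p, miR-150, miR-155 and miR-223, were not called. MiR-146a, which is induced by NF-kB and is known to target Traf6 and Irak1, was at 6.70, 6.72, 6.87 and 6.87 in T1R1 and 6.45, 6.57, 6.34 and 6.50 in T3R1. All T3R1 samples lay below all T1R1 samples, and the difference was -0.32 ± 0.05 (adjusted p = 0.00388). It was a dim probe, above the virus-probe level in 3 of the T1R1 samples and in none of T3R1. MiR-181a, known from lymphocyte development, had a difference of -0.22 ± 0.05 (adjusted p = 0.0447) and was above that level in no sample. In the list of 9, 8 differences were negative, with a median of -0.21, where 591 of 1022 were negative over all probes. The summed linear intensity of the list ran from 1131 to 1400 in T1R1 and from 994 to 1084 in T3R1. MiR-142-3p, made in blood cells, had a difference of -0.49 ± 0.18, miR-223, of myeloid cells, -0.26 ± 0.15, and miR-150, of mature lymphocytes, 0.06 ± 0.04, none of which passed the test. T1R1 replicate 2 was the highest sample for miR-142-3p, miR-142-5p and miR-223, at 8.12, 7.87 and 8.07. Without it miR-142-3p was at -0.32, miR-223 at -0.12 and the median of the list at -0.13, with 1 member called.

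MicroRNAs of red cells lay in the same direction without passing the test. MiR-451, the main one of red cells, was at 12.39, 13.69, 11.82 and 12.23 in T1R1. In T3R1 it was measured in 2 samples, both of 1 array, at 12.04 and 11.53, since outlier spots removed the other 2. Its difference was -0.75 ± 0.49 (adjusted p = 0.567). Differences were negative for 4 of 4 members, with a median of -0.39 and 1 at an unadjusted p under 0.05. Over all probes 591 of 1022 were negative and 13.1% had an unadjusted p under 0.05. The summed intensity of the 3 members measured in all samples ran from 505 to 1260 in T1R1 and from 446 to 605 in T3R1. T1R1 replicate 2 stood apart, at 13.69 for miR-451 and at 9.97 for miR-144, where the other T1R1 samples were at 8.09 to 8.56. Without it miR-451 was at -0.37, miR-144 at -0.16 rather than -0.51, and the median of the list at -0.19. The part of blood content in the lower calls was not tested.

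**Figure D3:**
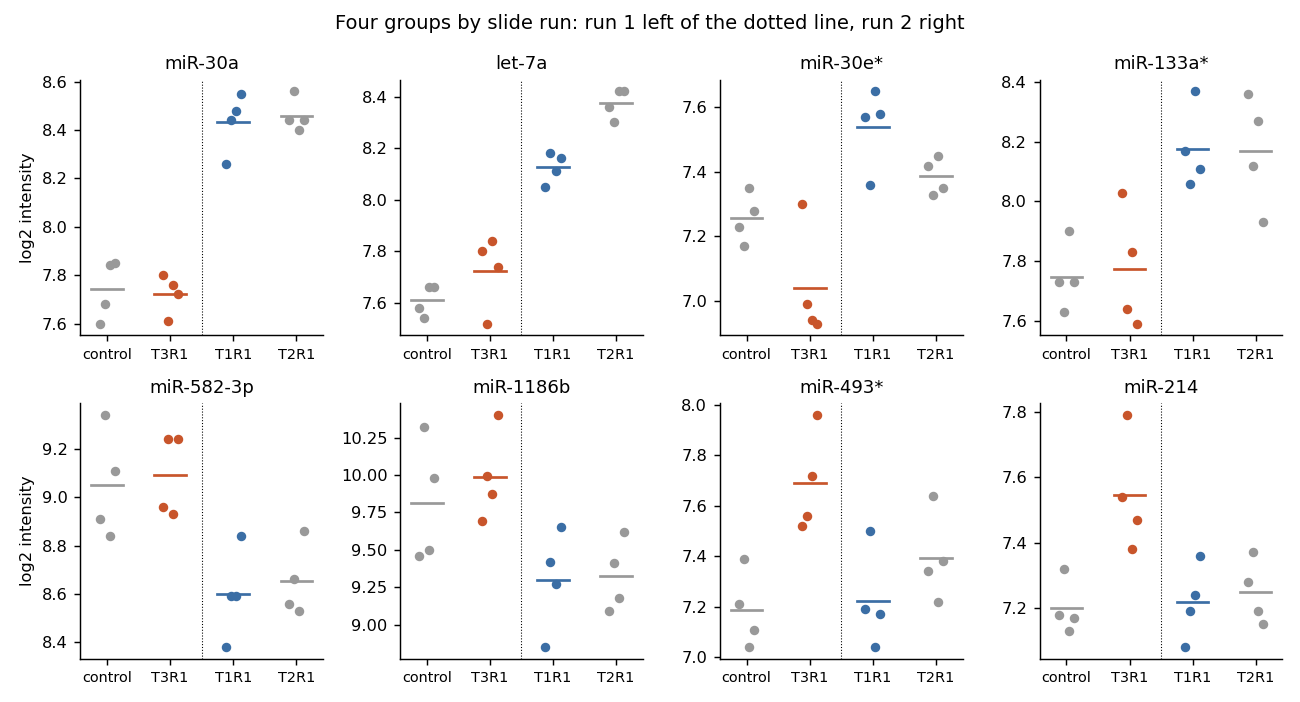
Log2 intensity of 8 called microRNAs in each sample of the 4 groups, with the groups of slide run 1 left of the dotted line and those of run 2 right of it (lines, group means; n = 4 each; axes do not start at 0). The samples of miR-30a and let-7a separate by run. For miR-133a*, miR-582-3p and miR-1186b the group means do so while single samples of the runs overlap, and for miR-493* and miR-214 T3R1 lies above the controls as well.

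Of the higher microRNAs, miR-582-3p had levels of 8.38, 8.59, 8.59 and 8.84 in T1R1 and 8.96, 9.24, 8.93 and 9.24 in T3R1. The groups did not overlap, and the difference was 0.49 ± 0.07 (1.41-fold higher, adjusted p = 0.00245). The controls had a mean of 9.05, so that T3R1 minus control was 0.04, and T2R1 minus T1R1 was 0.05. MiR-1186b was at 8.85, 9.42, 9.27 and 9.65 in T1R1 and 9.69, 9.99, 9.87 and 10.40 in T3R1, a difference of 0.69 ± 0.13 (adjusted p = 0.00774). The highest T1R1 sample lay just below the lowest T3R1 sample, and the controls again lay near T3R1 with a mean of 9.82.

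MiR-467a*, from a rodent-specific cluster within Sfmbt2, was at 7.77, 7.69, 7.76 and 7.72 in T1R1 and 8.04, 8.27, 8.08 and 8.27 in T3R1. The 4 T1R1 samples lay close together and all below T3R1, and the difference was 0.43 ± 0.07 (adjusted p = 0.00337). MiR-138-2* was at 7.75, 8.01, 7.82 and 8.0 in T1R1 and 8.07, 8.20, 8.12 and 8.31 in T3R1, a difference of 0.28 ± 0.04 (adjusted p = 0.00245) that turned to -0.04 when arrays were scaled to their medians. For both, the controls had a mean of 8.05. MiR-491* was at 9.57, 9.91, 9.92 and 9.78 in T1R1 and 10.20, 10.13, 10.34 and 10.29 in T3R1, a difference of 0.45 ± 0.10 (adjusted p = 0.0447) that turned to -0.33 when arrays were scaled to their medians.

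T3R1 minus control, within a slide run, was positive for all 11 higher microRNAs. These were called for high T3R1 values, so the choice itself favours that sign. MiR-493* was at 7.19, 7.50, 7.04 and 7.17 in T1R1 and 7.52, 7.56, 7.72 and 7.96 in T3R1, a difference of 0.47 ± 0.10 (adjusted p = 0.0407). T1R1 replicate 2 lay just below the lowest T3R1 sample. T3R1 minus control was 0.50 ± 0.10, which did not pass the test over all probes (adjusted p = 0.210). MiR-433*, of the same imprinted domain, had levels of 7.57, 7.57, 7.82 and 7.82 in T1R1 and 8.03, 8.03, 7.96 and 7.95 in T3R1, with a difference of 0.30 ± 0.07 (adjusted p = 0.0407) and T3R1 minus control of 0.16. The samples of an array had nearly the same value, so its 4 replicates stand close to 2 array values in each group. MiR-214, made from a transcript opposite Dnm3 and known to be raised in stressed heart muscle, was at 7.08, 7.19, 7.24 and 7.36 in T1R1 and 7.54, 7.79, 7.38 and 7.47 in T3R1. The nearest samples of the groups were 7.36 and 7.38, the difference was 0.33 ± 0.08 (adjusted p = 0.0447), and T3R1 minus control was 0.34 ± 0.08 (adjusted p = 0.210).

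MiR-767, from a hairpin within the span of Gabra3, was at 7.87, 7.83, 7.98 and 7.95 in T1R1 and 8.25, 8.31, 8.32 and 8.43 in T3R1. The gap between the groups was wider than the spread in either, and the difference was 0.42 ± 0.08 (adjusted p = 0.0156). T3R1 minus control was 0.37 ± 0.08 (adjusted p = 0.210). MiR-1196 and miR-509-3p had differences of 0.34 ± 0.08 and 0.18 ± 0.04 (adjusted p = 0.0447 for both), and miR-509-3p was dim in every sample.

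The within-run differences put the 22 calls beside their slide runs. For the 11 lower microRNAs, the control mean was nearer to T3R1 than to T1R1 in 10, and the T2R1 mean was nearer to T1R1 than to T3R1 in 10. For the 11 higher ones these counts were 5 and 11. The exceptions among the lower were miR-146a, whose control mean of 6.68 was nearer to T1R1, and miR-181a, whose T2R1 mean of 6.41 was nearer to T3R1. Such counts were not taken over all mouse probes. The microRNAs were picked for a gap between T3R1 and T1R1, so the counts describe them and add no test. T3R1 minus control ran from -0.22 to 0.17 over the lower microRNAs and from 0.04 to 0.50 over the higher ones. An unadjusted limma p under 0.05 was reached by 2 of the 11 lower and 7 of the 11 higher, against 6.65% of all mouse probes, and none was called. T2R1 minus T1R1 ran from -0.15 to 0.25 and from -0.03 to 0.17, where 3 and 0 had an unadjusted p under 0.05 and none was called. The calls rest on the same T3R1 and T1R1 values, so these signs and p values are not a separate test.

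Over all mouse probes, limma called none in T3R1 minus control, where 68 had an unadjusted p under 0.05 (6.65%), and none in T2R1 minus T1R1, where 35 did (3.42%). Both of these comparisons lie within a run. The other comparison between T3R1 and a group of run 2, T3R1 minus T2R1, had 11 calls (1.08%), 5 higher and 6 lower. Comparisons of the controls with groups of run 2 had 8 calls for T1R1 (0.784%) and 9 for T2R1 (0.881%), and 6 to 15 and 7 to 13 under other treatments of control and outlier spots. Over all settings that kept every sample, they ran from 0 to 863 for T1R1 and from 1 to 847 for T2R1. Both were highest with scaling to the median of bright probes. The calls of T3R1 minus T2R1 ran from 1 to 38 over those settings. T2R1 minus T1R1 had no call in any setting that kept all samples. T3R1 minus control had 2 with outlier spots dropped before scaling, 23 with median scaling and 703 with no step between arrays. For miR-30a, T3R1 minus T2R1 was -0.74 and T1R1 minus control was 0.69. These comparisons share samples, so they are not independent. Virus probes, which should bind no mouse RNA, had a median T3R1 minus T1R1 difference of -0.004 and a range of -0.16 to 0.55, and 12 of 143 (8.39%) had an unadjusted p under 0.05. With p adjusted over every probe that is not a control, 1 virus probe, 9 of 233 probes with no name and 15 of the mouse probes were called, and 19.7% of the probes with no name had an unadjusted p under 0.05.

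MiR-21, a microRNA of fibroblasts that is raised in many models of heart remodelling, did not pass the test although its difference was of the size of the largest calls. It was at 6.55, 7.20, 6.72 and 6.91 in T1R1 and 7.27, 7.62, 7.43 and 7.85 in T3R1, with no overlap. The difference was 0.70 ± 0.19 (limma adjusted p = 0.0754), and T3R1 minus control was 0.54 ± 0.19 (limma adjusted p = 0.546). The controls were at 7.23 and 7.63 on 1 array and at 6.41 and 6.72 on the other. MiR-21 stood above the virus-probe level in 2 of the T1R1 samples and 4 of T3R1. The remodelling and fibrosis list had 14 tested members, 6 positive and 8 negative with a median of -0.02, and miR-214 was its single call. Other members with low p values were miR-23b, at -0.28 ± 0.09 (adjusted p = 0.163), and miR-34a, a p53 target, at -0.25 ± 0.08 (adjusted p = 0.151). The remaining microRNAs just outside the threshold were miR-27b, miR-26a, miR-24-2*, miR-151-5p and miR-1a-1*, with differences from -0.36 to -0.20, and miR-351, miR-467f, miR-1968* and miR-1945, from 0.14 to 0.25, with adjusted p values from 0.0557 to 0.0914.

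Other families and clusters of microRNAs had few or no calls. The cluster that runs from miR-17 to miR-92a and its paralogs, known for roles in growth and in the developing heart, had negative differences in 14 of 14 members, a median of -0.16, and none called, with 3 at an unadjusted p under 0.05. Of the 14, 6 were above the virus-probe level in at least 4 of the 8 samples. T1R1 replicate 2 was the highest sample for miR-17, miR-19b, miR-106a and miR-106b, and without it 13 were negative and the median was -0.07. The miR-15/16 family, tied to the exit of heart muscle cells from the cell cycle, had 6 of 6 negative with a median of -0.20 and none called, with 1 at an unadjusted p under 0.05. Here too T1R1 replicate 2 was the highest sample for miR-15a, miR-15b and miR-16. Without it 5 were negative, the median was -0.16, and miR-15b was at -0.21 rather than -0.40. The miR-29 family, which targets collagens, had 3 of 3 negative and none called, with 1 at an unadjusted p under 0.05. MiR-29c, the lowest of these, was at -0.37 ± 0.15 (adjusted p = 0.263). Over all probes 591 of 1022 were negative. With arrays scaled to their medians, the miR-29 family had 3 members called lower, and the miR-15/16 family and the miR-17 clusters 4 each. That setting called 83 of all 1022 tested probes lower and 2 higher. The miR-30 and let-7 families had 5 members each called lower there, so the fall was not particular to these families.

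**Figure D4:**
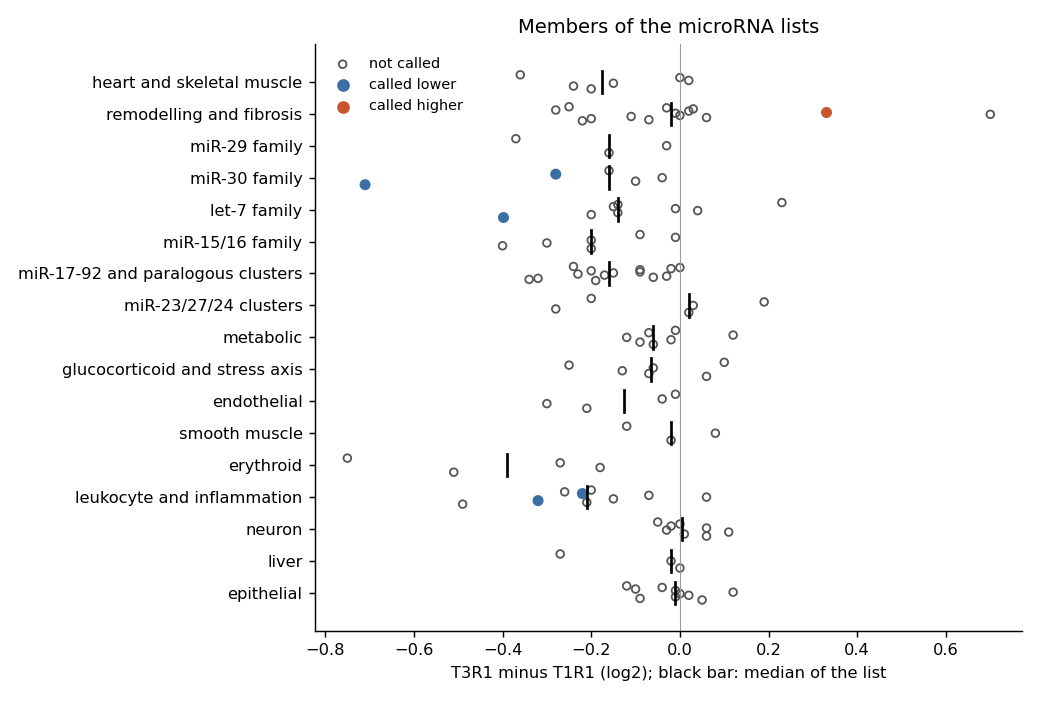
T3R1 minus T1R1 difference (log2) of each tested member of 17 microRNA lists, 1 line a list, with called members filled and the list median as a black bar. MiR-30a, at -0.71, stands apart from its family, and the medians of the other lists lie between -0.39 for the red-cell list and 0.02 for the miR-23/27/24 clusters.

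The miR-23/27/24 clusters, abundant in vessel walls, had 3 positive and 2 negative differences and none called, with 3 at an unadjusted p under 0.05. MiR-27a at 0.19 ± 0.08 and miR-27b at -0.20 ± 0.05 lay on opposite sides of 0. The endothelial list had 4 of 4 negative with a median of -0.13 and none called, with 1 at an unadjusted p under 0.05. MiR-126-3p, encoded in Egfl7 and the main marker of endothelium, was at -0.21 ± 0.10 (adjusted p = 0.421), and the summed intensity of the list ran from 3116 to 3998 in T1R1 and from 2540 to 3670 in T3R1. The smooth muscle list, with miR-143 at -0.02 ± 0.15 and miR-145 at 0.08 ± 0.08, had none called and none at an unadjusted p under 0.05. The metabolic list had 6 of 7 negative with a median of -0.06, and the list of the glucocorticoid and stress axis had 4 of 6 negative with a median of -0.06, with no call in either and 1 unadjusted p under 0.05, that of miR-34a. Markers of neurons, liver and epithelium, such as miR-124, miR-122 and miR-200c, had no member above the virus-probe level in at least 4 of the 8 samples and no call, with 2 unadjusted p values under 0.05 among their 21 members.

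The calls differed in how far they held when the processing changed. Each of the 16 samples was left out in turn and 21 other settings were tried. Of these 21, the scanner's own filter removed no probe and so repeated the main fit, which adds 1 to each tally below. MiR-30a was called in 35 of the 37 fits, with differences from -1.06 to -0.66, and miR-30e* in 33. MiR-149 was called in 31, and miR-467a*, miR-146a, let-7a and miR-133a* in 29 each. For miR-146a this was of 36 fits, since the virus-probe filter left it out. In all, 10 were called in every fit that left out 1 sample, namely miR-30a, miR-138-2*, miR-30e*, miR-582-3p, miR-149, miR-467a*, miR-146a, let-7a, miR-133a* and miR-1186b. In the 21 other settings miR-138-2* was called in 10, with its sign turned in 2, and miR-1186b in 7. MiR-214 was called in 8 of the 37. With the 2 samples of an array averaged, so that each group has 2 values, miR-467a* alone was called, and miR-30a had the same difference with an adjusted p of 0.0565 by limma. With no step that sets the brightness of arrays equal, no probe was called, 39 had an unadjusted p under 0.05, and miR-582-3p and miR-1186b had differences of 0.06 and 0.00.

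**Figure D5:**
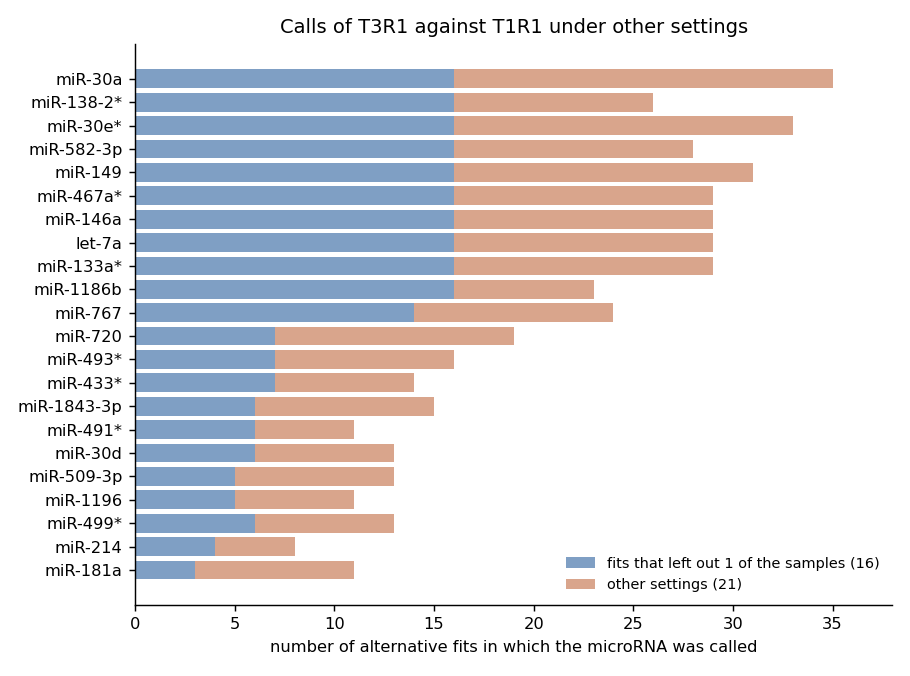
Number of alternative fits, of 37, in which each of the 22 microRNAs was called, split into the 16 fits that left out 1 sample and the 21 other settings. For miR-146a, miR-509-3p and miR-181a there were 36 fits, with 20 other settings, since the virus-probe filter left them out. MiR-30a was called in 35 and miR-214 in 8.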

How the data were processed

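The members, the lists of microRNAs and the naming rule were chosen with earlier results of these data known. The authors deposited unsubtracted spot and background intensity values per channel (per the file headers, from version 9.5.3.1 of Agilent Feature Extraction), with a processed intensity and 0 or 1 marks of other kinds per spot. They also deposited a log2 value table whose centring and method are not given in the sources used here; each of its columns has a median of 3.76.

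From the intensities, R 4.3.3 with limma 3.58.1 and data.table (version 1.17.8) applied normexp with an offset of 50, loess within arrays with control spots at weight 0, and Aquantile between arrays with control spots left out. Outlier spots were then dropped and the 4 spots of a probe averaged on the log2 scale, leaving 23 missing values over 7 mouse probes, 4 of them with a gap in the groups compared. No value was imputed. All 16 samples were fitted with a dye term and the array as a random block (correlation 0.249, and 0.645 over bright probes), with 11 residual and 3.05 prior degrees of freedom, and p-values were adjusted by Benjamini-Hochberg over all mouse probes, with calls at 0.05. Several treatments of control and outlier spots were tried with their counts of calls in view before the one used was settled.

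A mouse probe counted as above background where it exceeded the 95th percentile of the 143 human-virus probes. The scanner's own mark removed no probe. The median SE of a difference was 0.0583, and 0.0911 over bright probes; 2 arrays per group limit the precision. The microRNAs named are all called probes, the 10 lowest p values not called, a fixed set of markers, and the extremes of each list. Same-numbered samples of the groups share a dye but no animal, so the numbers were not taken as pairs. Their deviations correlated at 0.248 to 0.5, and at -0.14 or 0.035 within a dye. Each group has 2 samples a dye, so the within-dye values repeat and cannot decide on pairing.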

Additional observations from a re-analysis of the deposited data

Results flagged for a closer look

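A gap test within groups of 4 (Dixon) marked 2 of the 106 groups looked at, where chance marks about 1 in 20. MiR-499* was at 6.78 in T3R1 replicate 3, below the other samples of its group at 6.97 to 6.99. MiR-1968* was at 6.48 in T3R1 replicate 1, below 6.55 to 6.56 in the others. Their cause was not tested.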

How the results depend on the processing

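The count of 22 calls moved with the scaling between arrays: 85 (2 higher, 83 lower) with median scaling, 0 with no such step, 8 with quantile normalization and 7 with scaling to the median of bright probes, which shifted the median of all probes to 0.274. It was 4 with a normexp offset of 0, 2 with the processed intensities, 3 with the deposited table, 3 with the virus-probe filter, 1 with the samples of an array averaged and 4 with the array correlation of bright probes. Settings added after seeing the data gave 9 with outlier spots dropped before scaling and, with control spots kept, 28 (8 higher, 20 lower), or 17, 27 and 19 by which of them had weight 0. Leaving out 1 sample gave 10 to 29; the count fell by over 1.5 times without T3R1 replicate 2 (13), 3 (12) or 4 (10), T1R1 replicate 2 (11), 3 (13) or 4 (12), control replicate 2 (14), or T2R1 replicate 1 (11) or 3 (11). With the replicate block 20 were called, 18 of them shared.

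Under median scaling and under no step, in that order, signs turned for miR-138-2* (-0.04, -0.05), miR-491* (-0.33, -0.34), miR-467f (-0.03, -0.04), miR-98 (-0.08, -0.09), miR-27a (-0.16, -0.18), miR-150 (-0.04, -0.06), miR-145 (-0.24, -0.25), miR-22 (-0.51, -0.53) and miR-208a-3p (-0.91, -0.92). Under bright-probe scaling they turned for miR-491* (-0.03), miR-181a (0.04), miR-22 (-0.24) and miR-208a-3p (-0.60). In the main fit miR-22 had a difference of 0.12 ± 0.19 (log2, SE), and outlier spots left it 2 T1R1 values, both of 1 array. MiR-22 and miR-208a-3p also turned with the deposited table (-0.02, -0.04), with control spots kept in any of 4 ways (-0.22, -0.49) and with outlier spots dropped early (-0.08, -0.12), miR-22 with outlier spots kept (-0.10) and miR-208a-3p with quantile normalization (-0.02). Over the fits that left out 1 sample, miR-29b ran from -0.08 to 0.06, miR-208a-3p from -0.05 to 0.10 and miR-143 from -0.14 to 0.09. The causes were not tested. Of the 22, 19 did not turn in any fit run, though miR-433* and miR-1186b came to 0.00 with no step between arrays.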

Other observations

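The probe for 5S ribosomal RNA was 0.76 ± 0.12 higher in T3R1 than in T1R1 (log2, SE; limma adjusted p = 0.00438 over all named and unnamed probes), and that for the U6 small nuclear RNA labelled RNU6-1_RNU6-2 was 0.46 ± 0.11 higher (adjusted p = 0.0549). Over 24 small reference RNAs the median difference was -0.006. Other U6 probes, U6B at 0.11 ± 0.06 and RNU6-1 at -0.07 ± 0.16, did not pass the test. These differences carry the same change of slide run as the microRNAs.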
